A study of Mus musculus with 7 samples.

Results

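The oogenesins Oog1, Oog2, Oog3 and Oog4 were followed in mouse oocytes during meiotic maturation. They were picked from the deposited expression tables by gene symbol, which gave 4 of 25912 listed entries, and each of the 4 symbols was listed once. Levels had been measured by Smart-seq2, a full-length RNA-seq method for few cells, in 7 libraries of 10 oocytes each. The first group comprised 2 libraries of germinal vesicle (GV) oocytes, which are arrested in meiotic prophase with an intact nucleus. Their labels list no treatment, whereas the culture methods describe DMSO for GV controls as well. The second comprised 3 libraries of metaphase II (MII) oocytes, the mature stage that awaits fertilisation, treated with the solvent dimethylsulfoxide (DMSO). The third comprised 2 libraries of MII oocytes treated with BYBX, a small-molecule ligand of RNA G-quadruplexes (rG4s), which are stacked structures that guanine-rich RNA can fold into. All oocytes came from the ovaries of 4-week-old C57BL/6 females primed with gonadotropin, and the MII stage was reached in culture. The methods for these libraries name no dose of BYBX, and the ribosome profiling set beside them used 1 μM. The labels give no separate animal for each library, so the spread between libraries may be technical.

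Oogenesins are oocyte-specific members of the PRAME family, whose proteins are built from leucine-rich repeats. OOG1 has been reported to bind Ras and RALGDS, the exchange factor that couples Ras to the Ral GTPases, and much less is known about the other members. Fully grown oocytes are transcriptionally silent, so the transcripts measured here were made earlier, during growth, and a large part of such maternal RNA is deadenylated and degraded as the oocyte matures. Reverse transcription was primed with oligo-dT, which means that the values follow polyadenylated RNA.

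In GRCm38 (GENCODE vM21) 3 of the genes lie on chromosome 4 and 1 on chromosome 12. Oog4 (ENSMUSG00000047799.15) spans chr4:143437164-143450324 on the minus strand, Oog3 (ENSMUSG00000050810.8) chr4:144157557-144162663 on the minus strand and Oog2 (ENSMUSG00000066030.6) chr4:144190719-144196934 on the plus strand. Oog3 and Oog2 are neighbours that point away from each other, with 28056 bases and no annotated gene between their starts. The stretch from Oog4 to Oog2 holds 33 annotated genes, 20 of them protein-coding. Oog1 (ENSMUSG00000096576.2) spans chr12:87602688-87608850 on the plus strand. The longest coding transcripts were 2451 bases with 3 exons for Oog1, 1917 with 5 for Oog2, 1865 with 4 for Oog3 and 1981 with 5 for Oog4. Their coding sequences were most alike between Oog2 and Oog3, with 75.8% identity in a global alignment, followed by Oog2 and Oog4 (64.7%) and Oog3 and Oog4 (64.1%). Oog1 had 36.7 to 50.2% identity with the others. Gaps counted as differences in these percentages. The coding sequence used for Oog1 had 918 bases, against 1290 to 1500 for the others, so this difference in length lowers its values.

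The upstream regions resembled each other across both chromosomes. Over the 250 bases before the RefSeq start sites (GRCm38.p6) the 6 pairs had 63.9 to 76.5% identity, the highest between Oog2 and Oog4. The 140 bases next to the start site are shown because all members share 4 runs of at least 9 identical letters there. Capitals mark these runs and the letters TATATA, and each sequence reads 5′ to 3′ on the gene's own strand.
Oog1, chr12:87602525-87602664, plus strand: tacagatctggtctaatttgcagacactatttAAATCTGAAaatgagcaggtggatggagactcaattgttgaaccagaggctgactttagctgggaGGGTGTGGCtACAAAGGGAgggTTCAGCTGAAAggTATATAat
Oog2, chr4:144190577-144190716, plus strand: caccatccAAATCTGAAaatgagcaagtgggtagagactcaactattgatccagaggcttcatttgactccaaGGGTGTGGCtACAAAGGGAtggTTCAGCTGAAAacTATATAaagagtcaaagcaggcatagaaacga
Oog3, chr4:144162652-144162791, minus strand: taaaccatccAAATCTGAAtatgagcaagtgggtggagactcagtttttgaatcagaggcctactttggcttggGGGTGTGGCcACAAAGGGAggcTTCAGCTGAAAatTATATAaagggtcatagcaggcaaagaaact
Oog4, chr4:143450325-143450464, minus strand: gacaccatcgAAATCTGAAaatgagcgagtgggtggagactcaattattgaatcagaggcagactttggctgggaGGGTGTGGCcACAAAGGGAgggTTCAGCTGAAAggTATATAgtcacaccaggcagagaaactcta

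The longest shared run, TTCAGCTGAAA, contains CAGCTG, a form of the E-box CANNTG that basic helix-loop-helix factors can recognise. On either strand the run was found in 14 of 32851 RefSeq promoters (0.0426%), which belong to 13 genes: the 4 oogenesins, Pramel23, Pramel26 and Pramel32, Gm2042 and 5 others. By comparison, CANNTG occurred in 66.2% of all promoters, CAGCTG in 13.0% and TATATA in 5.25%. Of 38 genes with a symbol beginning with Pramel or Pramef, 32 had CANNTG, 5 CAGCTG and 17 TATATA. Among the shorter shared runs, GGGTGTGGC was found in 12 of these 38. TATATA began 30 to 32 bases before the RefSeq start in Oog2, Oog3 and Oog4 but only 8 bases before it in Oog1, whose GENCODE start lies 23 bases further downstream. From the GENCODE starts the distances were 31 bases for Oog1, 34 for Oog2, 19 for Oog3 and 30 for Oog4. These matches describe the letters only, and no binding was measured here.

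The ends of the transcripts differed. Near the 3′ end, the letters TTTTAT or TTTTAAT, which form a cytoplasmic polyadenylation element when they lie before the polyadenylation signal, were found within the last 100 bases of the longest coding transcript of Oog1 and Oog3. They were not found there in Oog2 and Oog4, and 16.6% of 21877 coding genes have them there, on either side of the signal. In Oog2 the letters of the polyadenylation signal begin 73 bases from the end, so only a short stretch before them was searched. The 30 bases around each match are shown with the matched letters in capitals, by position in the GENCODE transcript.
Oog1, 2380 to 2409 of the transcript: atagaagcaccaTTTTATgagactggccca
Oog3, 1836 to 1865 of the transcript: taataaatgtgttaactttgTTTTATtttt
In Oog1 the match began at base 2392, before the AATAAA at 2427, whereas in Oog3 it began at base 1856, after the AATAAA at 1837, and so does not meet that definition. A predicted rG4 motif means here 4 runs of at least 3 G with loops of 1 to 7 bases. It occurred in the longest coding transcript of 17.7% of the coding genes. It was found in 0 of the 10 annotated transcripts of the 4 oogenesins, which are too few genes to tell apart from that share. Their longest transcripts each had 12 to 15 runs of at least 3 G. Only these letters were searched, and folding was not measured.

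Copies matter for how the levels can be read, because the authors kept uniquely mapped reads. Of the 100-base windows of the longest Oog1 transcript, 76.7% also occur in another annotated gene, 1786 of 2352 of them in Gm2042, which lies on the same chromosome. For Oog2 the share was 22.4%, or 407 of 1818 windows, all of which occur in Gm13084 (Pramel26). It was 10.8% for Oog3, in the pseudogene Gm4350, and 0% for Oog4. How reads were shared out between these copies was not tested, and the values of Oog1 are the most uncertain in this respect.

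In the GV libraries 93.6 to 99.3% of all tested entries had a lower FPKM than the oogenesins. Values are given in FPKM, fragments counted per length of transcript and per depth of the library, which the authors had scaled to ERCC RNA added to the lysis buffer and, between batches, to the GV samples. Oog3 was the most abundant, with 884 and 626 FPKM in the 2 GV libraries. Oog1 had 569 and 442 FPKM, Oog4 412 and 324 FPKM, and Oog2 157 and 123 FPKM. The GV libraries did not overlap between any neighbours in this order, and the order Oog3, Oog1, Oog4, Oog2 was found in all 7 libraries. GV replicate 1 was above GV replicate 2 for all 4 genes, and its total over all entries was also higher, 489569 against 402113 FPKM.

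In MII oocytes with DMSO the values ran from 109732 to 127254 FPKM in total over all entries, and in MII oocytes with BYBX they were 246710 and 201482 FPKM. Fewer intact cells and less polyadenylated RNA per cell cannot be told apart in such libraries. The label of the cells was checked with markers. All 10 oocyte markers, including the zona pellucida genes, were detected in every group, and their summed level was 11309 to 14805 FPKM in GV, 1818 to 1990 FPKM in MII with DMSO and 5709 to 6083 FPKM in MII with BYBX. The 10 granulosa and cumulus cell markers summed to 8.17 to 15.5, 1.66 to 2.26 and 3.37 to 3.50 FPKM in the same order, and were highest in GV. Cyp19a1 (4.49 and 2.19 FPKM in GV, 1.29 to 1.58 in MII with DMSO), Inha (5.48 and 1.94 FPKM in GV) and Nr5a2 (4.43 and 3.24 FPKM in GV) carried most of this sum, while Tnfaip6 was at 0 in 6 of the 7 libraries. The 8 entries for erythrocyte genes summed to at most 1.13 FPKM in any library. The granulosa and cumulus sum was below every oogenesin in every library and nearest to Oog2 in MII with DMSO (3.92 to 7.31 FPKM), and its part in the results was not tested.

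In MII oocytes with DMSO, Oog1, Oog2 and Oog4 had fallen to 3.70 to 11.2% of their GV means, while Oog3 kept 53.3%. The level of Oog1 was still above 94.8 to 97.8% of all tested entries in these libraries. For Oog4 this share was 81.5 to 87.1%, for Oog2 65.4 to 78.3% and for Oog3 99.4 to 99.7%. Oog4 had 14.6, 15.8 and 10.4 FPKM in the 3 libraries, a mean of 13.6 ± 2.86 (SD, n = 3) after 368 ± 61.9 (SD, n = 2) in GV, which is 3.70% of the GV mean. Oog2 had 7.31, 6.25 and 3.92 FPKM, with means of 5.83 ± 1.73 against 140 ± 24.3 in GV, or 4.16%. Oog1 had 78.2, 43.2 and 48.7 FPKM, with means of 56.7 ± 18.8 against 505 ± 89.8, or 11.2%. All MII libraries with DMSO lay below both GV libraries for these 3 genes. The libraries of these groups were fully apart for 92.8% of all entries tested. Oog3, in contrast, had 517, 390 and 301 FPKM, a mean of 403 ± 109 against 755 ± 183, which left 53.3% of the GV mean. Its highest MII value, 517 FPKM, was not far below the lower GV value of 626 FPKM, although the groups did not overlap.

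**Figure D1:**
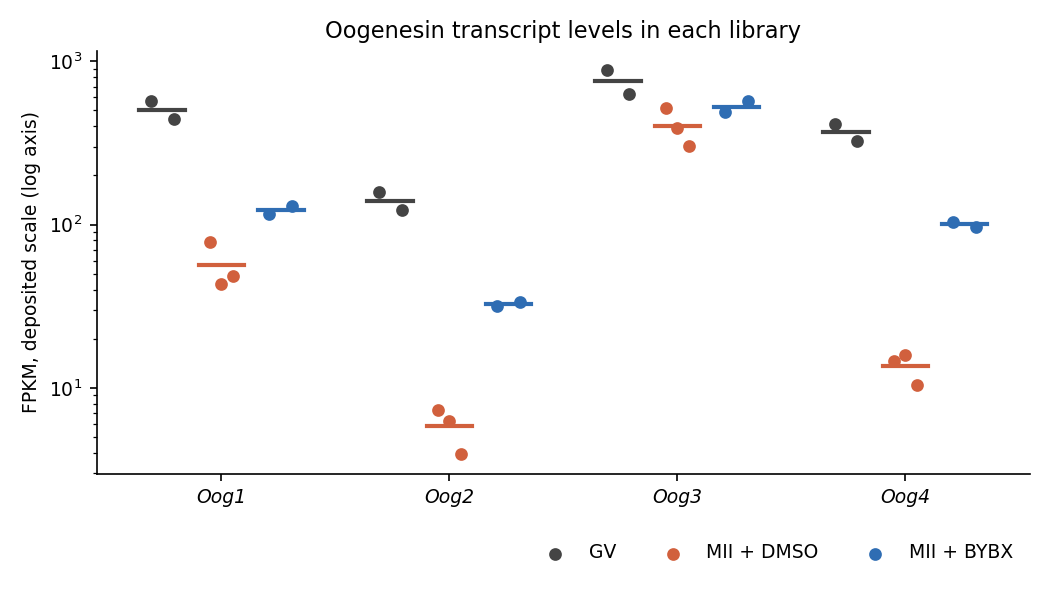
FPKM of Oog1, Oog2, Oog3 and Oog4 on a log axis, with 1 point per library and a bar at the group mean for GV (2 libraries), MII with DMSO (3) and MII with BYBX (2). Oog2 and Oog4 drop from 140 and 368 FPKM in GV to 5.83 and 13.6 FPKM in MII with DMSO, while Oog3 stays at 403 FPKM and its 2 MII groups overlap.

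The comparison of MII with DMSO against GV asks how the transcripts change during normal maturation. In limma fitted to log2(FPKM + 1) of the 9202 entries with a mean of at least 1 FPKM over the groups, all 4 oogenesins were lower in MII at a Benjamini-Hochberg adjusted p under 0.05, and so were 88.3% of all entries tested. The log2 change was -4.67 (SE 0.26, limma adjusted p = 1.6e-09) for Oog4 and -4.39 (SE 0.28, limma adjusted p = 4.2e-09) for Oog2. For Oog1 it was -3.17 (SE 0.29, limma adjusted p = 1.5e-07), and for Oog3 -0.92 (SE 0.27, limma adjusted p = 0.0063). The median change of the 4 was -3.78, against -1.83 over all entries. On this scale 5.65% of all entries had a lower change than Oog4, 7.51% than Oog2, 21.1% than Oog1 and 77.4% than Oog3. The pseudocount compresses low entries, and by the percentage of the GV level left the shares below them were 21.8% for Oog4, 23.5% for Oog2, 41.7% for Oog1 and 82.8% for Oog3. The decrease of Oog3 depended on 1 library and on the scale. Without GV replicate 1, which leaves 1 GV library, it was -0.67. With libraries rescaled to the same total FPKM or centred on their medians it became an increase of 0.97 or 1.38 (limma adjusted p = 0.011 and 8.4e-04). The other 3 genes were lower on all 3 scales. At the same total 49.5% of all entries were called lower and 23.3% higher, and with median centring 26.7% and 48.8%.

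With BYBX, Oog1, Oog2 and Oog4 lay above the levels of MII with DMSO and below those of GV. Oog4 had 104 and 96.2 FPKM, a mean of 100.3 ± 5.81 (SD, n = 2), which is 7.37 times its mean in MII with DMSO and 27.2% of its GV mean. Oog2 had 31.5 and 33.6 FPKM, with a mean of 32.6 ± 1.49, 5.59 times the DMSO mean and 23.2% of GV. Oog1 had 116 and 130 FPKM, with a mean of 123 ± 9.58, 2.17 times the DMSO mean and 24.3% of GV. For these 3 genes the libraries of the 3 groups were fully separated with BYBX in between, as they were for 71.1% of all entries tested. Oog3 had 486 and 568 FPKM, a mean of 527 ± 58.4, or 69.9% of GV. Its BYBX libraries overlapped with MII with DMSO, where 1 library had 517 FPKM, and stayed below both GV libraries. Over all entries tested, the BYBX libraries were apart from MII with DMSO for 79.3% and from GV for 83.1%.

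The comparison of the MII groups asks how transcript levels differ between oocytes matured with the rG4 ligand and with the solvent. The study reports that fewer oocytes released the first polar body with BYBX. It also describes abnormal spindles in the treated oocytes that reached MII. How far the progress of maturation differed between these libraries was not tested. Of the 4 oogenesins 3 were higher with BYBX in limma, as were 65.2% of all entries tested. The log2 differences were 2.81 (SE 0.26, limma adjusted p = 9.4e-07) for Oog4, 2.33 (SE 0.28, limma adjusted p = 7.9e-06) for Oog2 and 1.15 (SE 0.29, limma adjusted p = 0.0033) for Oog1. Oog3 did not pass, with 0.42 (95% interval -0.17 to 1.01, limma adjusted p = 0.19). The median over all entries was 0.84, and 93.8% of them had a lower difference than Oog4, 89.2% than Oog2, 63.9% than Oog1 and 23.6% than Oog3. With a pseudocount of 0.1 the median was 1.29 and Oog1, at 1.16, was below it. When every library was rescaled to the same total FPKM, the difference of Oog1 was 0.27 (limma adjusted p = 0.478), and with median centring it was -0.13 (limma adjusted p = 0.688). Oog2 and Oog4 were higher with BYBX on all 3 scales, by 1.05 and 1.53 at the least, whereas Oog3 was lower with median centring (-0.86, limma adjusted p = 0.017). At the same total 39.9% of all entries were called higher and 8.22% lower, and with median centring 18.4% and 43.9%.

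Against GV, 3 of the 4 oogenesins were lower in MII with BYBX, as were 69.2% of all entries tested. The log2 changes lay within 1 SE of each other for Oog2 (-2.06, SE 0.30, limma adjusted p = 1.1e-04), Oog1 (-2.02, SE 0.31, limma adjusted p = 1.4e-04) and Oog4 (-1.86, SE 0.29, limma adjusted p = 1.4e-04). They were larger decreases than the median of -0.99, and 3.19 to 8.05% of all entries had a lower change. By the percentage of the GV level left, 10.6% of entries were below Oog1, 8.47% below Oog2 and 17.0% below Oog4. The change of Oog3 was -0.50 (95% interval -1.15 to 0.15, limma adjusted p = 0.15) and did not pass. At the same total FPKM, the decrease of Oog1 (-1.03) had a limma adjusted p of 0.0525. This comparison shares its libraries with both others, so the 3 sets of values are not independent.

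**Figure D2:**
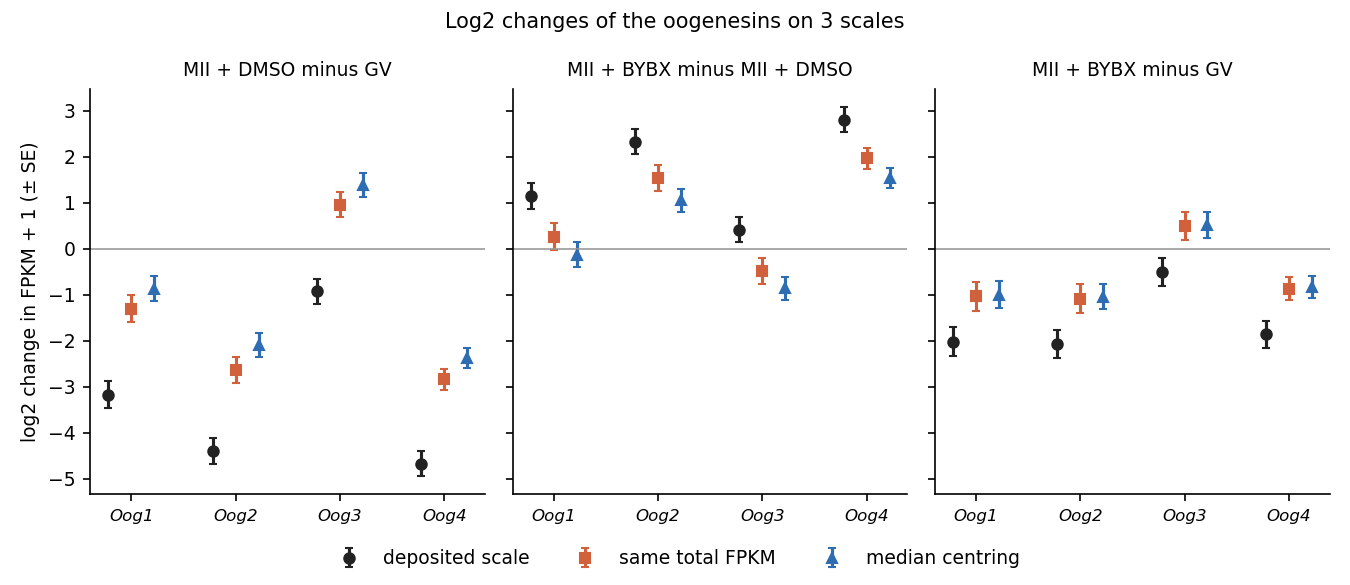
Log2 change of each oogenesin (± SE, limma) in the 3 comparisons, on the deposited scale, with every library at the same total FPKM, and with libraries centred on the median of the tested entries. Oog2 and Oog4 keep their direction on all 3 scales, and Oog3 changes sign in every comparison, for example from -0.92 to 0.97 and 1.38 in MII with DMSO against GV.

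Rescaling matters because the libraries differ in total. The median change of all entries in MII with DMSO against GV was -1.83 on the deposited scale, -0.56 at the same total and 0.47 with median centring. For BYBX against DMSO the medians were 0.84, 0.34 and -0.44. Ratios between oogenesins within a library do not depend on this scale. Oog3 made up 43.7 and 41.3% of the summed oogenesin FPKM in GV, 83.8, 85.7 and 82.7% in MII with DMSO, and 65.9 and 68.7% in MII with BYBX. Oog4 made up 20.4 and 21.4%, then 2.37, 3.47 and 2.86%, and 14.2 and 11.6% with BYBX. Oog1 went from 28.1 and 29.2% to 12.7, 9.49 and 13.4%, and was at 15.7% in both BYBX libraries. Oog2 went from 7.79 and 8.12% to 1.19, 1.37 and 1.08%, and was at 4.27 and 4.06% with BYBX. The groups did not overlap for any of the 4 shares, which add up to the whole in each library and so are not independent. Such shares were not examined for other genes. On the deposited scale, the levels of the 3 groups were fully apart for 71.3% of all entries tested.

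**Figure D3:**
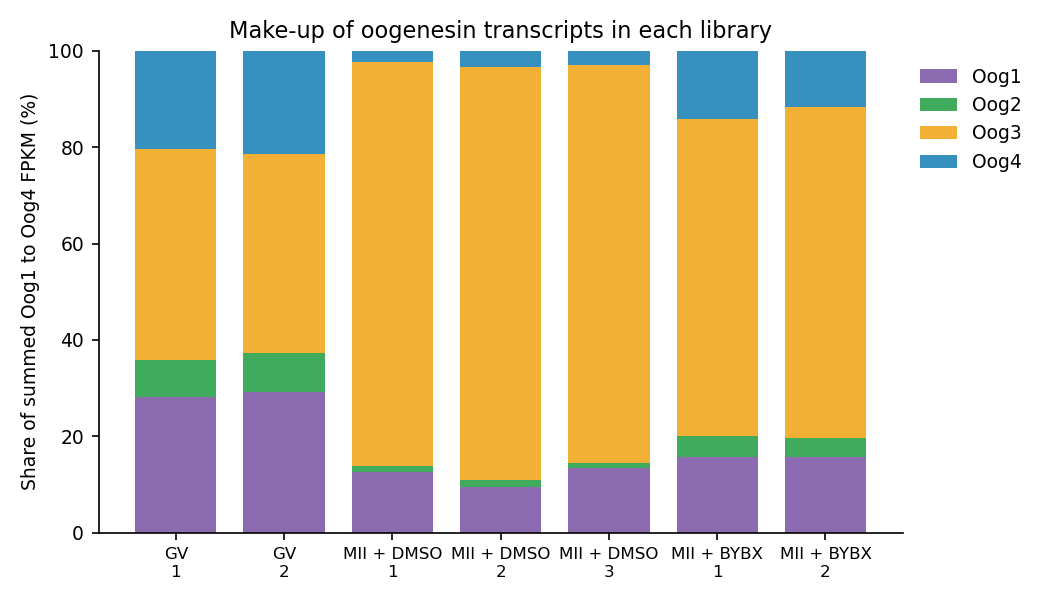
Share of each oogenesin in the summed FPKM of Oog1 to Oog4 (%), with 1 stacked bar per library. The share of Oog3 is 41.3 to 43.7% in the GV libraries, 82.7 to 85.7% in MII with DMSO and 65.9 to 68.7% in MII with BYBX.

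All 6 pairs of members were compared in this way in the 3 comparisons of groups, which makes 18 ratios. The log2 ratio of Oog3 to Oog4 was 1.02 ± 0.11 (SD, n = 2) in GV, 4.87 ± 0.26 (SD, n = 3) in MII with DMSO and 2.39 ± 0.24 (SD, n = 2) in MII with BYBX. That of Oog1 to Oog2 was 1.85 ± 0.01, 3.28 ± 0.44 and 1.91 ± 0.05 in the same order, so it differed from GV by 1.43 in MII with DMSO and by 0.06 in MII with BYBX. That of Oog2 to Oog4 was at -1.39 ± 0.01 in GV and -1.25 ± 0.22 in MII with DMSO, where the libraries overlapped. In MII with BYBX it was at -1.62 ± 0.15, and the libraries overlapped with neither other group. Exact two-sided permutation tests gave p = 0.1 for 10 of the 12 ratios of 2 libraries against 3, the smallest p that this design allows, and p = 0.333, again the smallest, for all 6 ratios of 2 against 2. None was under 0.05, and the smallest value after Benjamini-Hochberg adjustment over the 18 was 0.18 (exact permutation tests).

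The summed level of the family was 1768 ± 359 FPKM (SD, n = 2) in GV, 479 ± 128 (SD, n = 3) in MII with DMSO and 783 ± 63.7 (SD, n = 2) in MII with BYBX, or 27.1 and 44.3% of GV. As a share of each library's total FPKM the sum was 0.413 and 0.377% in GV, 0.562, 0.369 and 0.286% in MII with DMSO and 0.299 and 0.411% in MII with BYBX. On that scale the groups overlapped. Over all tested entries with a level in GV, the median level left in MII was 16.3% of GV with DMSO and 43.4% with BYBX. Oog1, Oog2 and Oog4 were below both medians and Oog3 was above both.

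**Figure D4:**
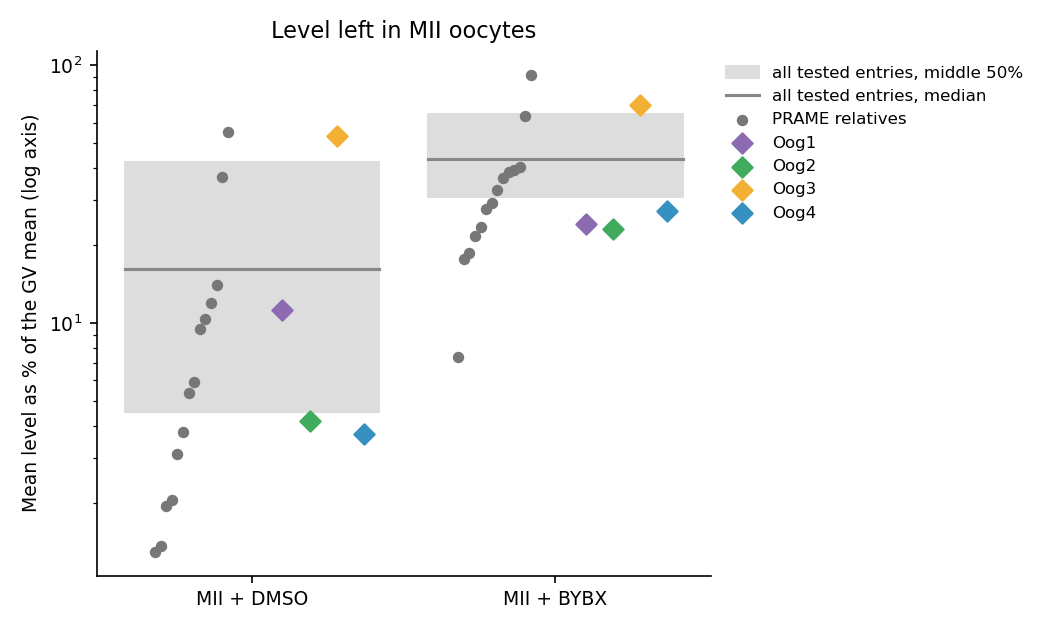
Mean level in each MII group as a percentage of the GV mean (log axis) for the 4 oogenesins (diamonds), the 14 tested PRAME relatives (points) and all tested entries (line at the median, band over the middle 50%). Oog3 keeps 53.3 and 69.9% of its GV level, above the medians of 16.3 and 43.4%, and the other oogenesins keep 3.70 to 11.2% with DMSO and 23.2 to 27.2% with BYBX.

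Other genes of the PRAME family were listed as 37 entries, of which 14 passed the minimum level, with Gm3139 among them as 2 entries. Gm13088 and both entries of Gm3139 had MII means under 1 FPKM, for example 7.28 FPKM in GV and 0.094 in MII with DMSO for Gm13088. They passed through GV alone, so their lower calls against GV are not independent of the filter. All 14 were called lower in MII with DMSO against GV, with a median log2 change of -3.02, beside 88.3% of all entries and their median of -1.83. With BYBX 12 were higher than with DMSO, with a median of 1.40, beside 65.2% and 0.84. Against GV, 12 were lower in MII with BYBX, with a median of -1.52, beside 69.2% and -0.99. The 3 with the highest GV level were C87977 (Pramel29), Gm13023 (Pramel25) and Gm10436 (Pramel51). C87977 went from 1587 ± 76.3 FPKM in GV to 85.0 ± 17.9 in MII with DMSO and 465 ± 13.9 with BYBX. Gm13023 went from 1219 ± 34.7 to 126 ± 32.7 and 399 ± 59.4 FPKM. Gm10436, on the chromosome of Oog1 and holding 28.7% of its 100-base windows, went from 741 ± 25.5 to 43.6 ± 9.49 and 139 ± 60.6 FPKM. The largest decreases in MII with DMSO were those of Gm13084 (log2 change -5.50, limma adjusted p = 1.1e-09), the gene that shares windows with Oog2, and Pramef20 (-4.98, limma adjusted p = 1.2e-09). The smallest were those of C87499, now called Pramel32 (-0.82, limma adjusted p = 0.010), and Pramef12 (-1.43, limma adjusted p = 0.0084).

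Among these relatives C87499 had the change nearest to that of Oog3, with 55.2% of its GV level left in MII with DMSO and 63.4% with BYBX. The run TTCAGCTGAAA is found in its promoter and in those of Gm13084 (Pramel26) and the oogenesins. A relation between this run and the levels was not tested. Like Oog3, C87499 had a higher level in MII with DMSO at the same total FPKM (1.04, limma adjusted p = 0.0029). At the same total, 12 of the 14 relatives were lower and 1 higher in MII with DMSO, when 49.5% of all entries were lower and 23.3% higher. With median centring 8 were lower and 2 higher, beside 26.7% and 48.8% of all entries. For BYBX against DMSO at the same total, 6 rose and 1 fell (39.9% and 8.22% of all entries), and 4 higher and 2 lower with median centring (18.4% and 43.9%). For BYBX against GV 4 and 5 were lower on these scales (13.3% and 13.6% of all entries). The 2 entries of Gm2042, the near-copy of Oog1, kept 23.4 and 16.8% of their GV means in MII with DMSO and 38.4 and 28.9% with BYBX, where Oog1 kept 11.2 and 24.3%. Their GV means were 664 and 998 FPKM.

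Because OOG1 is known as a Ras-binding protein, a list of 20 genes of Ras and Ral signalling was also examined, of which 13 were tested. In MII with DMSO 11 of them were lower than in GV, with a median log2 change of -1.46, and 7 were higher with BYBX than with DMSO, with a median of 0.78. Of all entries 88.3% and 65.2% were called in these directions, with medians of -1.83 and 0.84. Sos2, at 2.81 FPKM in GV, 0.810 in MII with DMSO and 1.14 with BYBX, passed the minimum level only through GV. Its lower call against GV is therefore not independent of the filter. At the same total FPKM 5 of the 13 were lower and 4 higher in MII with DMSO, and with median centring 4 were lower and 7 higher. For BYBX against DMSO at the same total, 3 rose and 1 fell, and with median centring the direction turned, with 2 higher and 6 lower. The shares of all entries on these scales are those given beside the PRAME relatives. Ralgds itself went from 11.1 ± 2.19 FPKM in GV to 0.572 ± 0.083 in MII with DMSO (log2 change -2.94, limma adjusted p = 1.4e-08) and 2.92 ± 0.25 with BYBX. Hras went from 11.8 ± 3.28 to 0.143 ± 0.063 and 4.41 ± 2.55 FPKM. Nras, at 23.3, 9.12 and 13.1 FPKM, was also lower in MII with DMSO on the deposited scale, and so was Rala, which encodes a Ral GTPase, at 16.5, 9.47 and 14.1 FPKM. With median centring Nras and Rala were higher in MII with DMSO, by 1.05 and 1.54, whereas Ralgds and Hras stayed lower, by -0.63 and -1.16. Ralb did not reach the minimum level.

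The profiles of the members were compared as log2(FPKM + 1) minus the GV mean over the 7 libraries, by the root mean square difference. Oog2 and Oog4 were the closest pair of members, at 0.24, and Oog3 and Oog4 the most distant, at 2.57. Among all tested entries, the 3 most like Oog3 were Sinhcaf, Copb1 and Fam107b, at 0.05 to 0.09, and 348 entries lay within 0.25 of it. Around Oog4 there were 101 entries within 0.25, led by Timm44, Ddx49 and 1110012L19Rik. Oog2 had 38, led by Eif3d, Vmp1 and Fbxw16, and Oog1 18, led by Adk, Rnpc3 and Fbxl8. These are descriptions over 7 libraries that share the contrast between groups. The pseudocount compresses low entries, so an entry near a member can keep a different percentage of its GV level. From GV to MII with DMSO, Fbxl8 went from 8.08 to 0.073 FPKM, where Oog1 went from 505 to 56.7. Timm44 went from 32.8 to 0.371 FPKM, where Oog4 went from 368 to 13.6. Adk, at 127 and 14.5 FPKM, was nearer to Oog1 in this respect.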

How the data were processed

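Smart-seq2 libraries of GV oocytes (2), MII oocytes with DMSO (3) and MII oocytes with BYBX (2) were grouped by their labels. According to the study's methods and the submitters' processing notes, the authors trimmed reads (Trim Galore 0.6.7), aligned them to mm10 (HISAT2 2.2.1), kept unique alignments, computed FPKM (Cufflinks 2.2.1), scaled them to the ERCC spike-in and, across batches, to GV samples, then deposited these FPKM values. The factors are not stated, which libraries form a batch is not given, and the depth is unknown, so precision is that of 2 or 3 libraries.

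Of 25912 entries, 4 with a missing value were left out. Here, limma 3.58.1 (R 4.3.3, trend) was fitted to log2(FPKM + 1) of 9202 entries with a mean of the 3 group means of at least 1 FPKM, all 7 libraries in 1 model (4 residual degrees of freedom), with calls at p under 0.05 after Benjamini-Hochberg adjustment. The step was also run on simulated data in which few entries changed, unlike here, so that run checks the code only. Fold changes on this scale understate those of low genes. Ratios within libraries were compared by exact permutation tests (scipy 1.17.1), two-sided on the absolute difference of means. Named were all oogenesins, the 3 entries most like each, the PRAME relatives with the 3 highest GV levels and the 2 largest and 2 smallest changes in MII with DMSO from at least 10 FPKM in GV, and 6 Ras and Ral genes, of which 1 is not reported here. Gm2042 was added for its shared sequence and Sos2 for its low level. Members and lists were chosen with earlier results of these data known. Positions and transcripts were taken from GENCODE vM21 and promoters from RefSeq (all 4 symbols matched), aligned with Biopython 1.88. The motifs were chosen after the sequences were seen. Tried as alternatives were 2 other scales, a smaller pseudocount (0.1), a filter at 5 FPKM, no filter, fits of 2 groups, a replicate block, no trend, a minimum of 2-fold and leaving out each library.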

Additional observations from a re-analysis of the deposited data

How the results depend on the processing

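On the deposited scale, the log2 changes of the 4 oogenesins in the 3 comparisons kept their direction and their side of the threshold in all alternatives but 2, both for Oog3 in MII with DMSO against GV: without GV replicate 1, and with a minimum of 2-fold. The scale itself moved most. At the same total FPKM, Oog3 was at 0.97 in MII with DMSO against GV, at -0.47 in BYBX against DMSO and at 0.49 in BYBX against GV. With median centring it was at 1.38, -0.86 and 0.53, and Oog1 was at -0.13 in BYBX against DMSO. Hence 1 oogenesin was called higher in MII with DMSO than in GV on each of the other scales, against 0 on the deposited scale, and 1 was called lower with BYBX than with DMSO under median centring. Of all entries 23.3% and 48.8% were called higher in the former and 43.9% lower in the latter. Which scale is right could not be tested, since no ERCC entries were used here. The summed level was 103% of GV in MII with DMSO and 89.9% in MII with BYBX as a share of the library total, and on the deposited scale the value with BYBX was 51.7% without GV replicate 1 and 38.7% without GV replicate 2. The minimum of 2-fold left 3 oogenesins called. Leaving out single libraries gave 3 to 4 oogenesins lower in MII with DMSO against GV.

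The replicate numbers are not stated to pair the libraries. Correlations of deviations between same-numbered libraries were 0.487 and 0.282 for GV with MII with DMSO, -0.601 and -0.348 for the MII groups and -0.330 for GV with MII with BYBX. With the replicate number as a block (replicate block) the calls were 4 lower, 3 higher and 3 lower, as without it, and Oog3 in MII with DMSO against GV was at -0.73 (limma adjusted p = 0.046). Exchanging the numbers of the 2 BYBX libraries, an alternative chosen after seeing the data, gave the same 4, 3 and 3 calls.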
